A study of Mus musculus with 6 samples.

Results

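Translation initiation factor genes were examined in long-term haematopoietic stem cells from mice labelled Irf8 knockout and from wildtype mice. The members are all genes whose symbol begins with Eif and a number from 1 to 6, without the Eif2ak kinases and without Eif2s3y, and each gene is represented by 1 probe set that names only that gene, the one with the highest mean over the 6 arrays. This gave 42 genes of 18193 measured. Eif1, Eif2s1, Eif3g and Eif4g1, which have no probe set of their own in the annotation used, were not analysed here. Affymetrix mouse arrays were hybridised with amplified RNA of 3 knockout (Irf8-/-) and 3 wildtype (Irf8+/+) samples, labelled as biological replicates at 3 weeks, with no treatment named. The cells came from bone marrow and were sorted as negative for lineage markers and CD48 and positive for c-kit, Sca-1 and CD150. The labels name no strain, sex, litter or removed part of Irf8, and do not say whether 3 weeks is an age. All values below are log2 expression values, and a difference is knockout minus wildtype on that scale unless stated otherwise.

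Initiation factors bring the initiator tRNA, the small ribosomal subunit and the capped mRNA together and then let the large subunit join at the start codon. eIF2 carries the initiator tRNA and is recharged by eIF2B, eIF3 is the large scaffold on the small subunit, and the eIF4 factors bind the cap and unwind the leader, with the 4E-binding proteins as their brake. Haematopoietic stem cells are known for a low rate of protein synthesis that depends on that brake. IRF8, the factor removed here, is a transcription factor of monocyte and dendritic cell development that binds interferon-type and ETS-IRF composite elements.

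Array medians lay between 4.85 and 4.96 over 45037 probe sets. Irf8 did not check the labels, with means of 5.93 ± 0.89 in knockout and 5.52 ± 0.79 in wildtype (SD, n = 3 each) in the probe set with the higher mean; where this probe set lies relative to the deletion is not given. Of the stem cell and sort markers, Meis1, Hlf, Ndn, Procr and Kit had group means between 9.16 and 11.49. Slamf1, which encodes CD150, averaged 7.41 ± 2.35 in knockout and 7.24 ± 1.65 in wildtype (SD, n = 3 each). Of the 9 markers of this list, which include Cd48, 5 had a difference above 0, with a median of 0.15. Procr alone had no overlap between groups (11.1% of the list, against 10.9% of all genes), at a difference of -0.75. Cd48, which the sort selected against, read 7.60, 9.42 and 3.55 in knockout and 4.54, 4.31 and 3.13 in wildtype. Its difference of 2.86 is 1 of the 5 above 0, so that count and the median do not stand for stem cell markers alone. For 14 neutrophil and granule genes the levels were summed on the linear scale and given as log2. This sum ran from 14.22 to 15.93 in knockout arrays and from 12.57 to 13.15 in wildtype arrays. Of the 14 genes 13 had a difference above 0, against 56.6% of all genes. S100a8, S100a9, Camp, Chil3 and Mmp8 were higher in knockout without overlap (5 genes or 35.7%, against 6.67% of all genes). The summed level of 7 monocyte and dendritic cell genes ran from 9.74 to 11.01 in knockout and from 8.87 to 10.41 in wildtype. Of these genes 3 were higher in knockout without overlap (42.9%, against 6.67% of all genes). They were Flt3, at a difference of 2.45, and Cd14 and Itgax, both below the median gene level of 5.81. For 5 erythroid genes the summed level ran from 7.09 to 8.83 in knockout and from 8.51 to 9.22 in wildtype. Klf1 alone had no overlap (20% of the list, against 10.9% of all genes), lower in knockout at -2.21. For 8 lymphoid genes it ran from 7.90 to 8.81 in knockout and from 8.40 to 9.94 in wildtype. Ncr1, below the median gene level, alone had no overlap (12.5%, against 10.9% of all genes), higher in knockout at 0.42. The part of such cells in the differences below was not tested, and in bulk RNA fewer cells of a type and less RNA per cell cannot be told apart. The array that correlated least with the others was knockout replicate 3 (mean r 0.845 over all genes). It also had the lowest stem cell sum (Cd48 included), the highest neutrophil sum and, when arrays were weighted, the lowest weight (0.49).

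The start regions of 33 of the 42 genes were found in the RefSeq promoter table (build GRCm38.p6), as 45 windows of 250 bases before and 50 bases after an annotated start. The interferon-type letters GAAA, any 2 bases, GAAA, searched on both strands like the other motifs here, occurred in 2 of these windows (4.44%, against 3.44% of all 32851 windows in the table, which also covers noncoding genes), and the ETS-IRF composite letters GGAA, any 2 bases, GAAA in 1 (2.22%, against 2.72%). The genes that held them were Eif3a and Eif2s3x for the first and Eif2b2 for the second, so they are printed here with the match in capitals, from the strand of the gene. In Eif3a the match begins 211 bases before the start, in Eif2s3x 4 bases before it, and in Eif2b2 it lies 18 bases past the first transcribed base and overlaps a CCGGAA match.
Eif3a, chr19:60790875-60790924, minus strand: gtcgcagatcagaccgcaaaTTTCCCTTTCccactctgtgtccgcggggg
Eif2s3x, chrX:94212632-94212675, minus strand: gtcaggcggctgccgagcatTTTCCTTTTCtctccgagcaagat
Eif2b2, chr12:85219479-85219508, plus strand: aagttgacctctctcggcccGGAAGTGAAA

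The letters of 2 other factor families were also counted. The E-box CACGTG, which MYC and related factors bind, was in 11 of the 45 windows (24.4%, against 7.15% of all windows) and in 9 genes. The ETS core CCGGAA was in 23 windows (51.1%, against 14.9%) and in 19 genes. Some genes had more than 1 window, so the window counts are not independent, and a match describes letters, not bound factors. The examples are from genes whose arrays are described below, with the match in capitals, beginning 189 bases before the start in Eif4a1, 44 in Eif3k and 64 in Eif4e for the E-box and 34 in Eif3l for the ETS core.
Eif4a1, chr11:69672587-69672632, minus strand: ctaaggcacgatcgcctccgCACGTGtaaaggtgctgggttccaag
Eif3k, chr7:28981907-28981952, minus strand: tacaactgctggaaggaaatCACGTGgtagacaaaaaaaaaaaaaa
Eif4e, chr3:138527184-138527229, plus strand: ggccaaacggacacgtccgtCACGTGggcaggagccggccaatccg
Eif3l, chr15:79075169-79075214, plus strand: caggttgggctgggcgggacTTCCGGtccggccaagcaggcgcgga

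Several initiation factor mRNAs are known to begin with a run of pyrimidines, through which mTOR controls their translation. A run of at least 8 bases of only C or T within 20 bases either side of the start, on the strand of the gene, was present in 10 of the 45 windows (22.2%, against 16% of all windows) and in 8 genes. The run, in capitals, is shown for a subunit of eIF2, for a pair of eIF3 subunits and for the catalytic subunit of eIF2B. It spans the start in all 4 genes shown and is longest among them in Eif2b5, at 21 bases. Bases before the start were included, 17 of the 21 in Eif2b5 and 7 of 10 in Eif3l. The counts are therefore not counts of mRNAs that begin with such a run. In Eif3m, not shown, a run of 11 bases begins 20 bases before the start and ends before reaching it. The run of Eif2s3x contains the interferon-type match above.
Eif2s3x, chrX:94212632-94212681, minus strand: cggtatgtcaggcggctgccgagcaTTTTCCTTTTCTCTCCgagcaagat
Eif3f, chr7:108934385-108934434, plus strand: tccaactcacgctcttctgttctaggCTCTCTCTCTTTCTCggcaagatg
Eif3l, chr15:79075193-79075242, plus strand: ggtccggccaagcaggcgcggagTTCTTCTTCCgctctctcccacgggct
Eif2b5, chr16:20498787-20498836, plus strand: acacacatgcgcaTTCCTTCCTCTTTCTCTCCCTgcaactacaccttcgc

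No initiation factor gene passed the test between knockout and wildtype arrays. In limma with Benjamini-Hochberg adjustment over all genes, 0 of the 42 passed an adjusted p of 0.05, as did 0% of all genes, and the smallest adjusted p among them was 0.887. Before adjustment, 4 genes had a p under 0.05 in limma (9.52%, against 4.84% of all genes and 5.66% of those above the median level). These were Eif5, higher in knockout (2.4% of all genes), and Eif1ad, Eif3l and Eif4a1, lower in knockout (2.44% of all genes). The groups did not overlap for 5 genes (11.9%, against 10.9% of all genes). Of these, Eif5 and Eif4ebp1 were higher in knockout (4.76%, against 6.67%) and Eif4a1, Eif3k and Eif3l were lower (7.14%, against 4.25%). Among the 9096 genes above the median level these shares were 4.89% higher and 6.3% lower. The median difference over the 42 genes was -0.02, with 19 genes above 0 and 23 below (56.6% and 43.4% of all genes), beside a median of 0.07 over all genes and -0.05 over the genes above the median level. Without knockout replicate 3 the median over the 42 genes was -0.15, and without wildtype replicate 3 it was -0.15 as well.

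**Figure D1:**
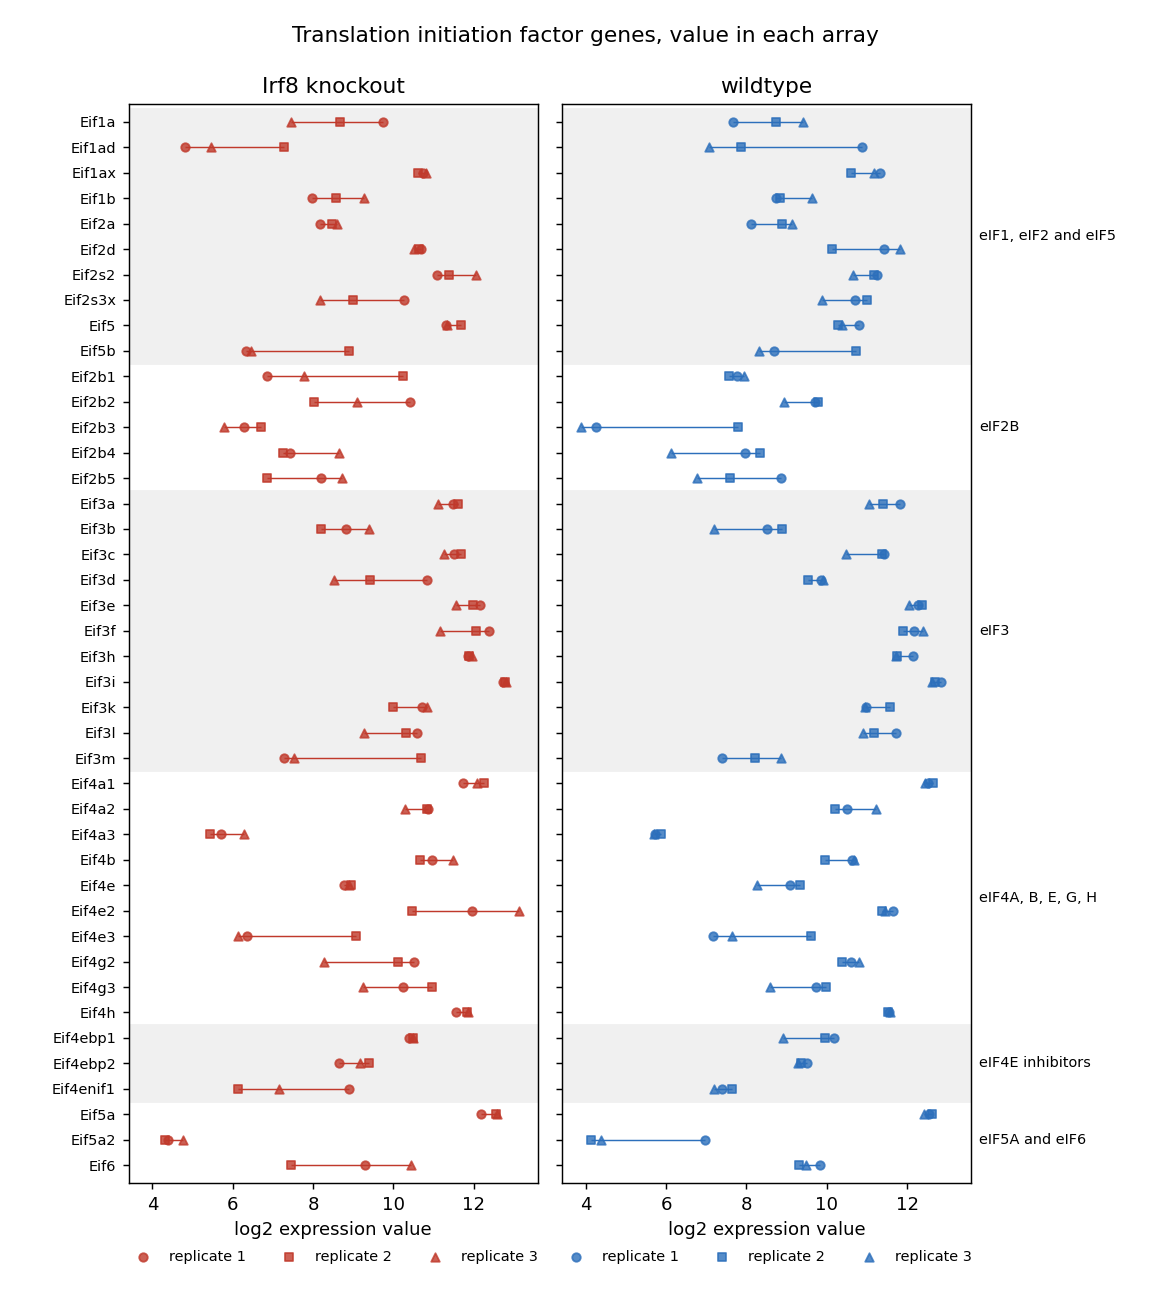
Log2 expression value of each of the 42 genes in each array, with the 3 knockout arrays in the left panel and the 3 wildtype arrays in the right one; lines join the lowest and highest array of a group and shading marks the role groups. Eif3i and Eif4h lie in narrow ranges in both panels, whereas Eif1ad, Eif5b and Eif4e3 are spread over more than 1 unit in both.

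The arrays allowed a close bound for some members and not for others. The 95% interval of the difference, unadjusted, lay within 1 unit on either side of 0, that is within a factor of 2, for 10 of the 42 genes (23.8%, against 6.68% of genes above the median level and 34.2% of all genes). The 10 were Eif3a, Eif3e, Eif3h, Eif3i, Eif4a1, Eif4a2, Eif4a3, Eif4h, Eif5a and Eif1ax. The narrowest was that of Eif3i, a subunit of eIF3, at 12.73, 12.77 and 12.81 in knockout and 12.84, 12.69 and 12.62 in wildtype, with a difference of 0.05 and an interval from -0.16 to 0.27. The widest was that of Eif1ad, from -5.47 to -0.04. The median spread within groups (pooled SD) was 0.58 over the 42 genes and 0.81 over all genes above the median level, and 39 of the 42 were above that level. Eif4a3, among the 10 genes named, was not, and a brighter probe set that it shares with Gm5576 differed by 0.91. The intervals are for the probe set used. Other probe sets of Eif1ax, Eif3h, Eif4a1 and Eif4h differed by up to -1.58, -1.10, 0.55 and 1.21. The ones behind the values of Eif3h and Eif4h had both group means below the median gene level of 5.81.

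**Figure D2:**
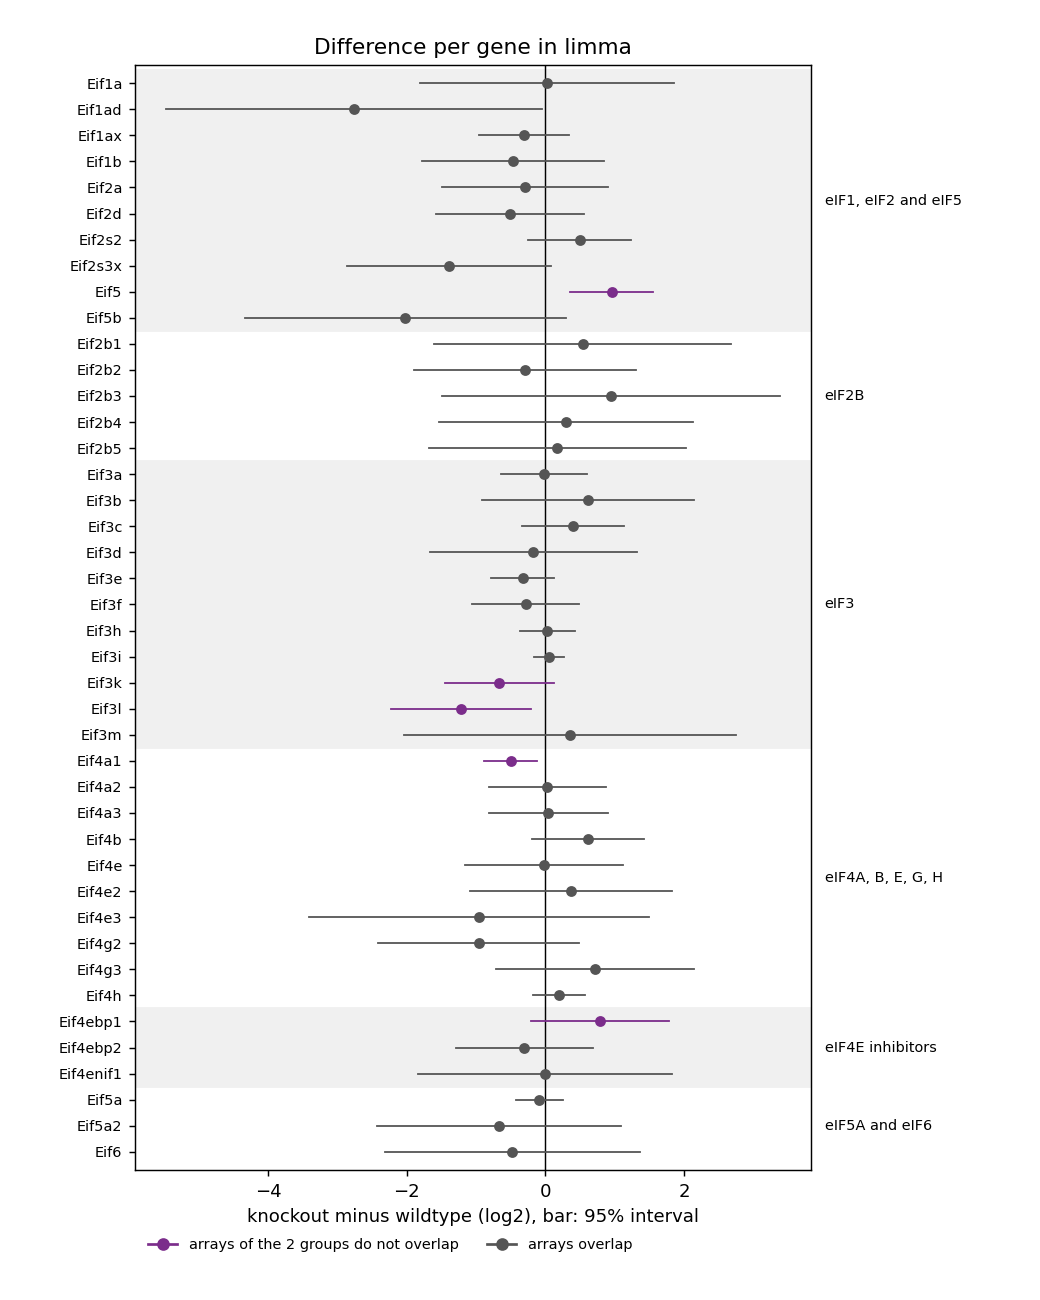
Knockout minus wildtype difference of each gene (point, log2) with its unadjusted 95% interval from limma (bar, n = 3 arrays per group); genes whose 3 knockout arrays do not overlap with the 3 wildtype arrays are coloured. The intervals of Eif5, Eif4a1, Eif3l and Eif1ad do not include 0, and 0 of the 42 genes pass after adjustment.

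Of the factors that deliver the initiator tRNA and read the start codon, 10 genes were measured, 3 with differences above 0 and 7 below. Eif5, which makes eIF2 hydrolyse its GTP at the start codon, read 11.31, 11.69 and 11.33 in knockout, against 10.81, 10.29 and 10.37 in wildtype. All 3 knockout arrays thus lay above all wildtype arrays, with a difference of 0.96 (SE 0.25) that was between 0.83 and 1.11 when any array was left out (adjusted p = 0.887 in limma). Another probe set of Eif5 ran the other way without overlap, at 8.96, 9.30 and 9.29 in knockout and 10.02, 9.46 and 9.51 in wildtype. Its mean over 5 probe sets differed by 0.11.

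Eif5b, the GTPase that joins the large subunit, read 6.32, 8.89 and 6.45 in knockout and 8.69, 10.73 and 8.31 in wildtype, a difference of -2.02 (SE 0.97, adjusted p = 0.887 in limma). Replicate 2 was the highest array of each group, and the groups overlapped. Another probe set read 7.23, 7.56 and 7.38 in knockout and 8.55, 8.05 and 8.11 in wildtype, without overlap, and the remaining one differed by -0.05. Without wildtype replicate 2 the difference of the first was -1.28.

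Eif1ad, a relative of eIF1A with a role in small subunit maturation known from human cells, had the largest difference of the 42 genes, -2.76 (SE 1.14), and the widest interval. It read 4.80, 7.27 and 5.46 in knockout and 10.87, 7.87 and 7.07 in wildtype, where 1 array of each group crosses into the other. Its other probe set read 8.19, 8.10 and 7.73 in knockout and 6.81, 4.94 and 7.54 in wildtype, higher in knockout without overlap. Without wildtype replicate 1 the difference was -1.62, and as a mean of both probe sets it was -0.59.

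The X-linked members were Eif2s3x, the gamma subunit of eIF2 that holds the tRNA, and Eif1ax, an eIF1A gene. Eif2s3x is known to escape X inactivation in mice, and Eif2s3y is its Y-linked partner. Eif2s3x read 10.26, 9.0 and 8.18 in knockout and 10.71, 11.005 and 9.89 in wildtype, a difference of -1.39 (SE 0.62, adjusted p = 0.887 in limma). The groups overlapped only through knockout replicate 1, and the difference was -0.91 without knockout replicate 3. Its other 2 probe sets differed by -1.48 and -0.26. Eif1ax read 10.74, 10.61 and 10.82 in knockout and 11.32, 10.59 and 11.19 in wildtype, a difference of -0.31, and its other 2 probe sets differed by -1.58 and -0.20.

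Xist, the RNA of the inactive X chromosome, read 10.62, 3.34 and 3.81 in knockout and 7.60, 3.36 and 11.21 in wildtype. Eif2s3y read 3.96, 8.23 and 7.06 in knockout and 9.95, 8.68 and 3.71 in wildtype, so the arrays with the highest Xist in each group had the lowest Eif2s3y. Eif2s3x was highest of its group in the first of these arrays and lowest of its group in the second. With Xist above or below the midpoint of its range as a covariate, which put wildtype replicate 1 with the high arrays although its Eif2s3y was the highest of all, the Eif2s3x difference was -1.23. With the median of the 3 Xist probe sets, chosen after seeing the data, 1 array of each group was high. A covariate balanced in this way cannot change the difference, which stayed at -1.39 and says nothing about Xist.

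The remaining genes of this role overlapped between groups. Eif2s2, the beta subunit of eIF2, read 11.10, 11.39 and 12.05 in knockout and 11.24, 11.17 and 10.65 in wildtype, a difference of 0.49, and its other 5 probe sets ranged from -0.68, without overlap, to 0.72. Without knockout replicate 3 the Eif2s2 difference was 0.22, and without wildtype replicate 3 it was 0.31. Eif2d, an alternative carrier of initiator tRNA, lay at 10.69, 10.65 and 10.51 in knockout, within the wider wildtype arrays at 11.43, 10.12 and 11.82. Its difference of -0.51 was -0.16 without wildtype replicate 3 and -1.01 without wildtype replicate 2. Other probe sets of Eif2d differed by up to 1.19 in the opposite direction. That value came from a probe set with means of 4.44 in knockout and 3.25 in wildtype. Eif2a, another carrier, read 8.17, 8.48 and 8.59 in knockout and 8.10, 8.88 and 9.13 in wildtype, a difference of -0.29 that was between -0.59 and -0.08 when any array was left out. Eif1a, another eIF1A gene, read 9.73, 8.68 and 7.46 in knockout and 7.66, 8.73 and 9.41 in wildtype, nearly the same range, and its other probe set differed by -0.50. Eif1b, a close copy of the start codon factor eIF1, differed by -0.47, and by between -0.81 and -0.15 when any array was left out. The median of the 10 genes relative to the wildtype mean was -0.36, -0.39 and -0.41 in the knockout arrays and 0.20, -0.03 and 0.02 in the wildtype arrays, with no overlap. This is a description of a small group of genes, without a test.

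**Figure D3:**
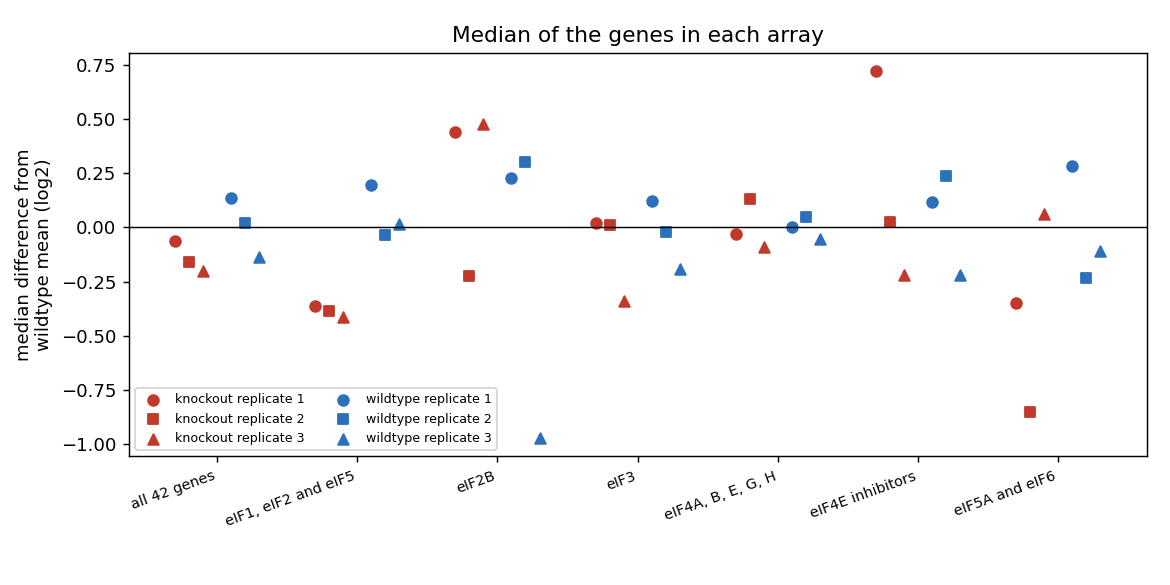
Median over the genes of each role group of the difference from the wildtype mean (y axis, log2, so the wildtype arrays lie around 0) in each array, with the 3 knockout arrays to the left of the 3 wildtype arrays. The knockout arrays lie below the wildtype arrays for eIF1, eIF2 and eIF5, while the arrays overlap for the eIF2B, eIF3, eIF4, inhibitor, and eIF5A and eIF6 groups.

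The 5 subunits of eIF2B, which exchanges GDP for GTP on eIF2 and is blocked in the integrated stress response, varied widely between arrays, with a median pooled SD of 1.01. Eif2b3 read 6.29, 6.71 and 5.78 in knockout, within the wildtype arrays at 4.26, 7.79 and 3.87. Eif2b1 read 6.86, 10.24 and 7.77 in knockout and 7.76, 7.56 and 7.95 in wildtype, so that its difference of 0.54 rested on knockout replicate 2 and was -0.44 without that array. Eif2b2 differed by -0.29, Eif2b4 by 0.30 and the catalytic subunit Eif2b5 by 0.17, and the groups overlapped for all 5. Without knockout replicate 3 Eif2b4 differed by -0.14 and Eif2b5 by -0.23.

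Of the eIF3 complex 11 subunits were measured, 5 with differences above 0 and 6 below. Eif3l read 10.59, 10.31 and 9.27 in knockout and 11.72, 11.18 and 10.90 in wildtype, a difference of -1.21 (SE 0.43, adjusted p = 0.887 in limma) or 2.32-fold lower. All 3 knockout arrays lay below all wildtype arrays, and the difference was -0.82 without knockout replicate 3. Other probe sets of Eif3l differed by 0.09 and 0.36. Eif3k, which pairs with Eif3l in the complex and was measured by 1 probe set, read 10.71, 9.98 and 10.84 in knockout and 10.99, 11.57 and 10.96 in wildtype, a difference of -0.67 (SE 0.33, adjusted p = 0.887 in limma). The groups did not overlap, but the gap between the nearest arrays was small, and the difference was -0.40 without knockout replicate 2.

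The arrays of the remaining subunits overlapped. Eif3a, the large scaffold subunit, read 11.50, 11.62 and 11.11 in knockout and 11.82, 11.41 and 11.05 in wildtype, a difference of -0.02. Eif3c differed by 0.39 and Eif3b by 0.61, with wildtype replicate 3 the lowest array for both, and by 0.079 and 0.11 without that array. Without knockout replicate 3 the Eif3b difference was 0.32. Eif3h, at 11.86, 11.88 and 11.96 in knockout and 12.14, 11.75 and 11.72 in wildtype, differed by 0.03, while its other 2 probe sets read at most 5.02 and differed by -0.48 and -1.10. Eif3e and Eif3f differed by -0.33 and -0.29, with knockout replicate 3 lowest for both, and Eif3d by -0.17. Without that array the differences were -0.16 for Eif3e, 0.066 for Eif3f and 0.36 for Eif3d. Eif3m, at 7.29, 10.69 and 7.52 in knockout and 7.40, 8.20 and 8.85 in wildtype, differed by 0.35 and by -0.75 without knockout replicate 2. Probe sets shared by Eif3j1 and Eif3j2, which name no single gene, differed by -0.20, -0.12 and -0.72.

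The cap-binding and helicase factors counted 10 genes, 6 with differences above 0 and 4 below. Eif4a1, the main helicase of the cap complex, read 11.74, 12.27 and 12.09 in knockout and 12.52, 12.64 and 12.44 in wildtype, a difference of -0.50 (SE 0.16, adjusted p = 0.887 in limma). All 3 knockout arrays lay below the wildtype arrays, with a difference between -0.61 and -0.35 when any array was left out. Its other probe sets gave the opposite sign, 0.21 and 0.55, and their mean with the first gave 0.09. Eif4a2, a close copy, differed by 0.03, and Eif4a3, the helicase of the exon junction complex, by 0.04 in a probe set of its own. A probe set shared by Eif4a3 and Gm5576 read 10.58, 10.96 and 11.61 in knockout and 10.69, 10.01 and 9.73 in wildtype, a difference of 0.91.

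Eif4e, the cap-binding protein itself, read 8.78, 8.95 and 8.90 in knockout and 9.07, 9.34 and 8.27 in wildtype, a difference of -0.02 with an interval from -1.15 to 1.12. Its other 3 probe sets differed by 0.02, 0.37 and 0.68, the last with means of 4.34 in knockout and 3.66 in wildtype. Eif4e2, a cap-binding repressor, had a difference of 0.37 that came from knockout replicate 3, at 13.13 against 11.95 and 10.47 in the other knockout arrays and 11.64, 11.37 and 11.44 in wildtype, and it was -0.27 without that array. Eif4e3, another cap-binding protein of the family, differed by -0.96, with replicate 2 highest in both groups. It differed by -0.22 without wildtype replicate 2, by -1.90 without knockout replicate 2 and by -0.43 without knockout replicate 3, and its other probe set by 0.01.

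Of the scaffolds and helicase partners, Eif4b and Eif4h stimulate eIF4A. Eif4b read 10.97, 10.65 and 11.49 in knockout and 10.63, 9.96 and 10.68 in wildtype, a difference of 0.61, and its other probe sets differed by 0.40, without overlap, and by -0.86. The Eif4b difference was 0.39 without knockout replicate 3 and also without wildtype replicate 2. Eif4h read 11.56, 11.83 and 11.85 in knockout and 11.55, 11.53 and 11.56 in wildtype, a difference of 0.20. Its other 5 probe sets ranged from -0.21 to 1.21, with 1 at 0.59 higher in knockout without overlap. The one at 1.21 had means of 4.48 in knockout and 3.27 in wildtype. Eif4g2, a scaffold that lacks the eIF4E site, read 10.52, 10.12 and 8.28 in knockout and 10.61, 10.39 and 10.81 in wildtype. Its difference of -0.96 was -0.28 without knockout replicate 3, and its other 4 probe sets ranged from -0.19 to 1.20, the highest of them without overlap. Eif4g3, another scaffold, read 10.23, 10.97 and 9.25 in knockout and 9.73, 9.99 and 8.58 in wildtype, a difference of 0.71. Another probe set of Eif4g3 differed by -1.26, with means of 3.48 in knockout and 4.73 in wildtype. The mean of its probe sets differed by 0.11. Without wildtype replicate 3 the Eif4g3 difference was 0.29, without knockout replicate 2 it was 0.30, and without knockout replicate 3 it was 1.16.

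Among the inhibitors of eIF4E, Eif4ebp1, which sequesters eIF4E until mTOR phosphorylates it, read 10.40, 10.49 and 10.48 in knockout and 10.17, 9.96 and 8.90 in wildtype. The knockout arrays lay above the wildtype arrays and close together (SD 0.05, against 0.68 in wildtype), with a difference of 0.78 (SE 0.42, adjusted p = 0.887 in limma). Without wildtype replicate 3 the difference was 0.40. Another probe set differed by 1.14, with 9.42, 9.98 and 10.25 in knockout and 9.23, 9.57 and 7.44 in wildtype, and the remaining one by -0.06. Eif4ebp2, a related inhibitor, read 8.66, 9.40 and 9.16 in knockout and 9.49, 9.35 and 9.29 in wildtype, a difference of -0.30, with its other 4 probe sets between -0.57 and 0.69. Eif4enif1, the nuclear carrier of eIF4E, read 8.90, 6.14 and 7.16 in knockout and 7.39, 7.64 and 7.19 in wildtype. The probe set that names Eif4ebp3 is shared with Ankhd1 and differed by -0.38.

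Eif5a, whose product carries the amino acid hypusine and promotes elongation and termination, read 12.17, 12.55 and 12.58 in knockout and 12.53, 12.62 and 12.42 in wildtype, a difference of -0.09 with an interval from -0.42 to 0.25. Its paralogue Eif5a2 read 4.39, 4.31 and 4.77 in knockout and 6.97, 4.14 and 4.37 in wildtype. The Eif5a2 difference of -0.67 came from wildtype replicate 1 and was 0.24 without it. Eif6, which keeps the large subunit from joining early, read 9.28, 7.46 and 10.45 in knockout and 9.82, 9.31 and 9.49 in wildtype. Its difference of -0.48 was 0.33 without knockout replicate 2 and -1.17 without knockout replicate 3. Dhps and Dohh, the enzymes that make hypusine, differed by -0.24 and 0.47, or by -0.84 and 0.23 without knockout replicate 3, and neither passed.

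Probe sets of the same gene often differed in sign. Of the 32 genes with several probe sets, 7 had differences of 1 sign in all of them, namely Eif1ax, Eif2b5, Eif2s3x, Eif3i, Eif5a, Eif5a2 and Eif5b. For 14 genes another probe set differed by more than 0.5 in the direction opposite to the one used. For Eif2a, Eif2d, Eif3h, Eif4e and Eif4g3 that probe set had both group means below the median gene level of 5.81. At such a level the probe set may not detect the gene. For the rest of the 14 both group means lay above it. The median range between the probe sets of a gene was 1.16, and the largest was 4.34, for Eif1ad. Of all 118 probe sets of the 42 genes, 12 had groups that did not overlap (10.2%, against 10.9% of single-gene probe sets), 6 higher and 6 lower in knockout. Eif5 had 1 in each direction.

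**Figure D4:**
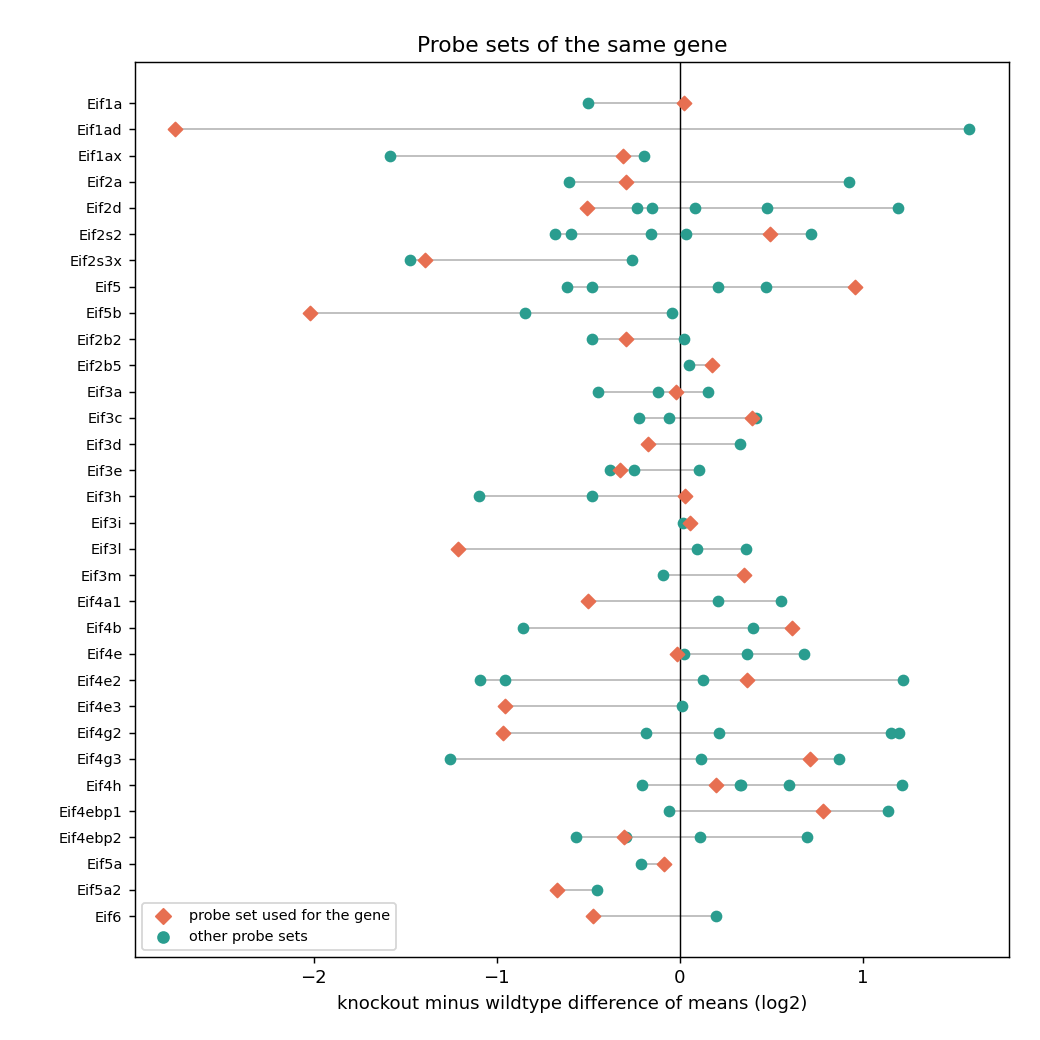
Difference of group means (knockout minus wildtype, log2) for each probe set of the 32 genes with several; diamonds mark the probe set that stands for the gene, circles the others, and lines join their extremes. Eif3i, Eif5a and Eif2b5 have probe sets within 0.13 of each other, while those of Eif1ad are 4.34 apart. The level of each probe set is not shown.

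In 5 lists of related genes 0 passed the adjusted threshold in limma. Of the eIF2 alpha kinases and the phosphatase regulators that counter them, 0 of 6 passed. An unadjusted p under 0.05 in limma was found for 1 (16.7%, against 4.84% of all genes and 5.66% of those above the median level). This was Ppp1r15a, the stress-induced regulator, at 9.79, 11.39 and 8.68 in knockout and 11.36, 11.65 and 11.51 in wildtype, a difference of -1.55, which was -0.92 without knockout replicate 3. Among the kinases, Eif2ak4, which senses uncharged tRNA, differed by -0.90, Eif2ak2, the interferon-induced kinase PKR, by 0.78, Eif2ak3 by 0.45, or by 0.0074 without knockout replicate 3, and Eif2ak1 by -0.01. Of 17 other initiation and cap regulators 2 had an unadjusted p under 0.05 (11.8%, against 4.84% of all genes and 5.66% of those above the median level, where all 17 lie). They were Pabpc4 and Pabpc1, poly(A)-binding proteins, which connect the tail to eIF4G. Pabpc4 read 9.29, 10.17 and 9.40 in knockout and 10.77, 11.13 and 10.51 in wildtype, a difference of -1.19. It alone of the 17 had no overlap (5.88%, against 10.9% of all genes). Pabpc1 differed by -0.46 (adjusted p = 0.887 for both genes in limma).

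Elongation and termination factors had a median difference of 0.03 over 10 genes, with Eef1d at -0.40, or -0.19 without knockout replicate 3, and Etf1 at -0.42. The cytosolic tRNA synthetases had a median of 0.18 over 18 genes, 12 of them above 0. Qars read 11.40, 11.67 and 11.49 in knockout and 11.26, 10.81 and 11.21 in wildtype. It alone of the synthetases had no overlap (5.56%, against 10.9% of all genes). Iars read 10.46, 11.94 and 3.60 in knockout, where replicate 3 was low, and 11.90, 11.18 and 10.68 in wildtype, a difference of -2.59 with replicate 3 and -0.05 without it. In both lists 0 genes had an unadjusted p under 0.05, and 0 passed after adjustment.

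Members were also set against the letters in their start regions, without a test. Of the 33 genes with a window, 19 had differences below 0 and 14 above, with a median of -0.02. Of the 9 genes with an E-box, 8 had differences below 0 and 1 above, with a median of -0.29. Among those below 0, Eif4e (-0.02), Eif3a (-0.02) and Eif5a (-0.09) lay near 0 and changed sign under at least 1 alternative. Eif3f, whose -0.29 is the median here, was 0.066 without knockout replicate 3. Eif5a2 (-0.67) was 0.24 without wildtype replicate 1. Other probe sets of Eif4a1, also below 0, had differences above 0, and the mean of its probe sets differed by 0.09. Only Eif1b and Eif3k, each measured by 1 probe set, kept a difference below 0 under every alternative. Of the 19 with the ETS core, 12 were below 0. Their median over the 19 was -0.17, the value of Eif3d, which changed sign under 4 alternatives. Of the 8 with a pyrimidine run 6 were below 0, with a median of -0.15. The 3 genes with interferon-type or composite letters differed by -1.39 (Eif2s3x), -0.02 (Eif3a) and -0.29 (Eif2b2). These counts share arrays and genes with those above, since several genes hold more than 1 of the motifs.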

How the data were processed

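Amplified RNA of sorted bone marrow cells was measured on Affymetrix arrays, per the labels' protocols. The deposited values are log2 expression values per probe set; per the submitters' processing notes the tools were Partek, RMA and Affymetrix Expression Console, with no version or setting given. Of 45037 probe sets, 34945 name 1 gene, 932 several and 9160 none in the platform annotation. All 42 members matched RefSeq by Entrez number. Groups were taken from the titles. Knockout was compared with wildtype over 18193 genes in limma 3.58.1 (R 4.3.3; a linear model per gene, moderated by eBayes along the mean-variance trend), with Benjamini-Hochberg adjustment over all genes and a threshold of 0.05. No filter on level was applied. Whether replicates came from separate animals is not stated, so p-values measure the spread between these samples.

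The fit was tested on simulated data of these 18193 genes, with 3.5 false calls per run. It called 8% of genes changed 2-fold, 31.2% of those changed 4-fold and 55.2% of those changed 8-fold. Changed genes were drawn from all genes, with the spreads observed in these arrays taken as true. These shares are therefore not those of the 42 genes, whose median pooled SD was 0.58 against 0.50 over all genes. Members, lists and tests were chosen with earlier results of these data known. Values in every array are given for genes whose groups do not overlap, the 2 with the smallest p of each role, the X-linked members, genes with an opposed probe set over 0.5, and up to 2 genes of each related list; other members are given by fewer values, some with arrays shown after they were seen. Promoter letters were chosen after the data were seen. Same-numbered arrays did not deviate together (correlations -0.024, -0.0093 and -0.012). Tables were made with pandas 2.3.3 and figures with matplotlib 3.10.9. Alternatives varied the moderation, scaling, level filter and probe sets, weighted the arrays, added a replicate block or Xist as a covariate, or left out each array.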

Additional observations from a re-analysis of the deposited data

How the results depend on the processing

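Under all 16 alternatives 0 of the measured members and 0 genes of the related lists passed, with adjusted p of the members between 0.653 and 1. The count at an unadjusted p under 0.05, 4 over all arrays, was 2 without the mean-variance trend, 0 when a gene's probe sets were averaged, and between 2 (without wildtype replicate 1) and 6 (without knockout replicate 2) when 1 array was left out. The 5 genes without overlap became 2 with the mean of probe sets, 3 of 33 measured genes without _s_at, _x_at and _a_at probe sets, and 8 to 12 when 1 array was left out, where fewer arrays make overlap less likely. The median difference lay between -0.15 (without knockout replicate 3) and -0.035 (without wildtype replicate 1) with 1 array left out. With the replicate number as a block, the count of genes at an unadjusted p under 0.05 was 5 and no call changed. The median difference was -0.02, which this balanced block could not change. The same-numbered arrays share only a number. The Xist covariate from the brightest probe set was planned; the one from the median of its probe sets was added after seeing the data.

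Of 660 gene values under alternatives 599 kept their sign, and 61 in 25 genes turned, with 0 calls among them and with causes that were not tested. The 599 include settings that by their form leave every difference unchanged, so they overstate how stable the signs are. Those settings were the fit without the mean-variance trend, the level filter, the balanced replicate block and the added Xist covariate. With the mean of probe sets the difference was -0.24 for Eif1a, 0.007 for Eif2a, 0.14 for Eif2d, -0.031 for Eif2s2, 0.078 for Eif3d, -0.52 for Eif3h, 0.086 for Eif4a1, 0.26 for Eif4e, -0.068 for Eif4e2 and 0.28 for Eif4g2. Without the _s_at, _x_at and _a_at types it was 0.48 for Eif2d, -0.22 for Eif3c, 0.11 for Eif3e, 0.55 for Eif4a1 and 0.20 for Eif6. The probe sets left for Eif3e and Eif6 read at most 3.36 and 5.57. With array weights the difference was -0.014 for Eif2b4, -0.11 for Eif2b5, 0.0077 for Eif3a, 0.043 for Eif3d and -0.071 for Eif4a3. With quantile normalization it was 0.033 for Eif3a, 0.0052 for Eif4e and 0.023 for Eif4enif1. With the planned Xist covariate it was -0.0048 for Eif2b4, 0.007 for Eif3a, 0.20 for Eif3d, -0.015 for Eif4a3 and 0.31 for Eif4enif1. With 1 array left out, ranges that crossed 0 were -0.53 to 0.60 for Eif1a, -0.44 to 1.25 for Eif2b1, -0.91 to 0.28 for Eif2b2, -0.37 to 0.73 for Eif2b4, -0.31 to 0.74 for Eif2b5, -0.21 to 0.18 for Eif3a, -0.80 to 0.36 for Eif3d, -0.54 to 0.066 for Eif3f, -0.047 to 0.17 for Eif3h, -0.75 to 0.96 for Eif3m, -0.19 to 0.32 for Eif4a2, -0.20 to 0.22 for Eif4a3, -0.33 to 0.21 for Eif4e, -0.27 to 1.06 for Eif4e2, -0.75 to 0.63 for Eif4enif1, -0.16 to 0.044 for Eif5a, -1.18 to 0.24 for Eif5a2 and -1.17 to 0.33 for Eif6.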
